A study of Mus musculus with 16 samples.

Results

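The organic ion transporters of the Slc22 and Slco families were followed in the liver and kidney of mice kept under chronic circadian misalignment. Members were all genes whose symbol begins with Slc22a or Slco and a number in the deposited tables of both organs, which gave 40 genes of 32989, 25 of the Slc22 family and 15 of the Slco family. Each had 1 row, and 1 of them, Slc22a13b-ps, is a pseudogene. Male C57BL/6J mice without any labelled genetic change were compared under 2 light conditions: the LD-condition, with light from 8:00 to 20:00, and the ADV-condition, in which the light cycle was advanced by 8 h once every 4 days. All mice were 97 weeks old and had been in their condition for 85 weeks. Poly(A) RNA was sequenced from liver and kidney of the same 4 LD mice (L63, L65, L86 and L104) and 4 ADV mice (A75, A91, A94 and A115), which makes 16 libraries, and values are listed in this order below. Replicates were separate mice.

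Slc22 and Slco proteins sit in the plasma membrane and carry charged or amphipathic small molecules into or out of cells. The Slc22 family holds the organic cation transporters, the carnitine and ergothioneine carriers and the organic anion transporters, and the Slco family encodes the Oatp proteins, which take up bile acids, steroid and thyroid hormone conjugates, prostaglandins and many drugs. In liver they face the blood side of hepatocytes, and in kidney they line both faces of the proximal tubule, where anions and cations are secreted and urate is reabsorbed.

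Levels are given as FPKM, fragments scaled to the exon length of the gene and the total of the library, so that genes can be compared per length. The libraries held between 15688495 and 24285055 fragments on genes. Genes with a mean above 0.5 FPM in an organ, which is the level scaled to the library total alone, were tested there, and a gene was called when its Benjamini-Hochberg adjusted p was under 0.05 by limma on log2(FPKM + 0.1). Markers of the other organ were checked against the labels. The 10 hepatocyte markers summed to 58912 to 72745 FPKM in the livers and to 70.7 to 97.1 FPKM in the kidneys, where 1 of them, Cps1, was at 0 in all 8 libraries and Apob, Serpina1a and Ttr lay between 12.4 and 53.8 FPKM. The 10 proximal tubule markers summed to 20606 to 47212 FPKM in the kidneys and to 569 to 1340 FPKM in the livers. There Pck1, a gene of gluconeogenesis that hepatocytes also express, made up 555 to 1330 FPKM, and 3 of the list (Slc34a1, Kap and Slc5a12) were at 0. Loop of Henle markers summed to between 0.0126 and 0.0726 FPKM in 7 livers and to 1.66 FPKM in A94, with 2 of 8 at 0 in all livers, Slc12a1 among them. One kidney library, A115, stood apart from the rest. Mitochondrial genes took 33.8% of its fragments, against 15.7% to 18% in the LD kidneys and 9.43% to 13.1% in the other ADV kidneys, and its mean correlation with the other kidneys was 0.858, against 0.932 to 0.964 for the rest. The liver A94 had a mean correlation of 0.941, against 0.977 to 0.982 for the others. Both mice are named beside the results they touch.

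Of the 40 members, 18 passed the filter on low values in liver and 28 in kidney. Both organs shared 16 of them, 2 passed in liver alone (Slco1b2 and Slc22a27), 12 in kidney alone and 10 in neither. Slc22a16, Slc22a20, Slco6b1, Slco6c1 and Slco6d1 were at 0 in all 16 libraries. Just above the filter stood Slc22a4 and Slc22a29 in liver, at 2.05 and 2.72 FPM, and Slc22a3 and Slc22a21 in kidney, at 1.19 and 1.2496 FPM. Just below it stood Slc22a17 and Slc22a21 in liver, at 0.438 and 0.265 FPM, and Slc22a14 and Slc22a27 in kidney, at 0.306 and 0.197 FPM.

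Many members lie beside close relatives. The 6 Slco1 genes lie on chromosome 6, 9 genes of organic anion transporters on chromosome 19, Slc22a5, Slc22a21 and Slc22a4 on chromosome 11, and Slc22a3 and Slc22a2 on chromosome 17 (GRCm38/mm10). GENCODE M21 coding sequences were compared within Slc22 and within Slco genes of the same first number. Of these 318 pairs, 20 were identical at over 70% of their bases. The closest pair was Slc22a27 and Slc22a29 at 97.3%, followed by Slc22a28 and Slc22a29 at 92.2% and Slc22a27 and Slc22a28 at 91.6%. Slc22a5 and Slc22a21 were identical at 89.4%, and the 6 pairs among Slco1a1, Slco1a4, Slco1a5 and Slco1a6 at 83.9% to 89.4%. Reads of these genes can match more than 1 copy, and the authors removed reads of low mapping quality, so that their levels are uncertain to that extent.

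**Figure D1:**
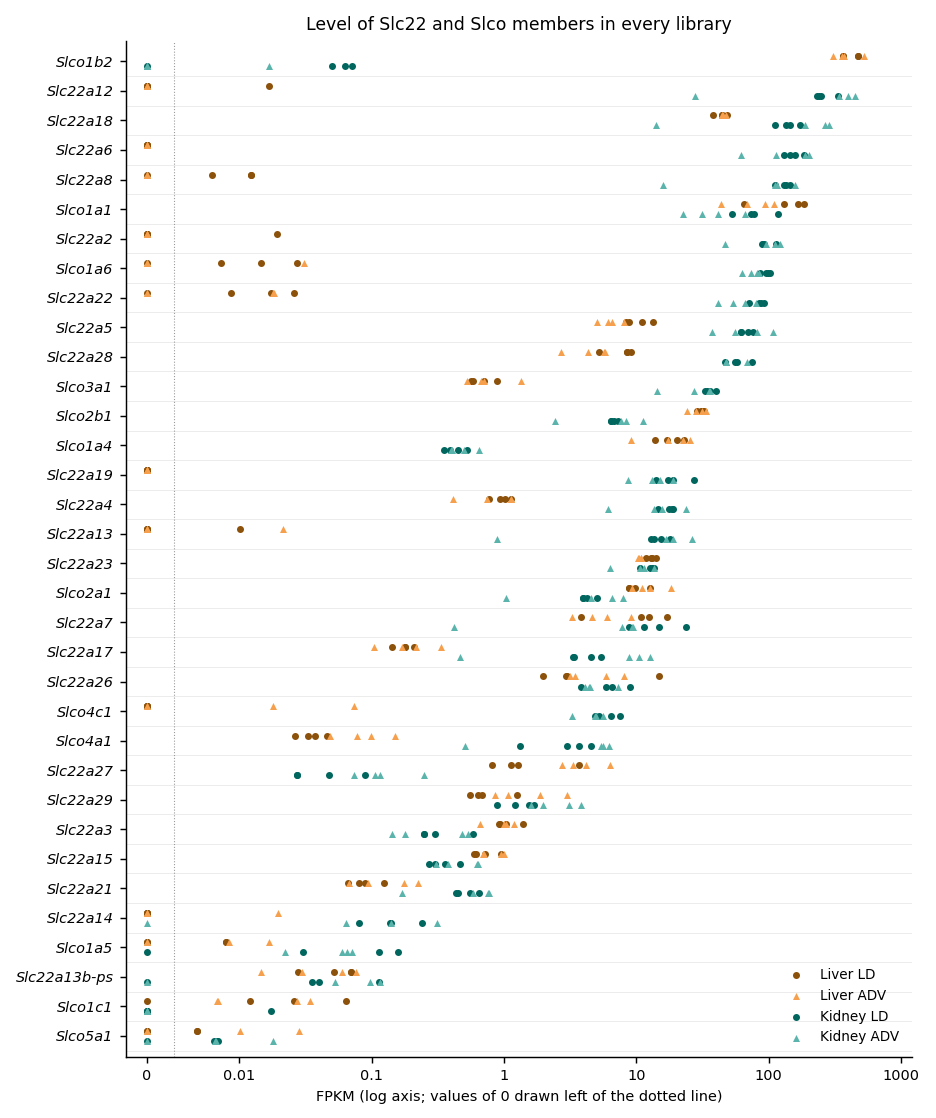
FPKM on a log axis of 34 members above 0 in any library, with 1 point for each library (brown, liver; green, kidney; circle, LD; triangle, ADV) and values of 0 drawn left of the dotted line. Slco1b2 lies above 300 FPKM in the livers and under 0.1 in the kidneys, whereas Slc22a6 lies at 0 in every liver, and the kidney A115 is the lowest point of several kidney members.

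The 2 members with the largest difference between the organs in each direction were Slco1b2 and Slco1a4 on the liver side and Slc22a12 and Slc22a6 on the kidney side. The 250 bases before their RefSeq start are shown (GRCm38.p6, read 5′ to 3′ on the strand of the gene) because these members carried the largest differences between the organs. Capitals mark 4 short motifs searched on both strands: the motif GTTAAT, the motif CAAAGT (part of an HNF4 site), AGGTCA (part of a nuclear receptor site) and CACGTG (an E-box). The RefSeq start of Slco1a4 lies 49 bases from that of the deposited table. The windows are chr6:141629268-141629517 on the plus strand for Slco1b2, chr6:141856221-141856470 on the minus strand for Slco1a4, chr19:6543071-6543320 on the minus strand for Slc22a12 and chr19:8617746-8617995 on the plus strand for Slc22a6.
Slco1b2: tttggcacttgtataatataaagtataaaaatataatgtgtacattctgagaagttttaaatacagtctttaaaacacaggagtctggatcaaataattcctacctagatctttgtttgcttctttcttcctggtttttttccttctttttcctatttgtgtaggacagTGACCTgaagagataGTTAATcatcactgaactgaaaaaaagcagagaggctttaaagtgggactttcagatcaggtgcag
Slco1a4: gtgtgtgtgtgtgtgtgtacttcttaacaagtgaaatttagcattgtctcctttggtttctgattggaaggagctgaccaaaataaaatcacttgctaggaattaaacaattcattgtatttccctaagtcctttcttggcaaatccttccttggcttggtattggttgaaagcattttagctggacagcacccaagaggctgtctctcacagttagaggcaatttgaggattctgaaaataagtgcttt
Slc22a12: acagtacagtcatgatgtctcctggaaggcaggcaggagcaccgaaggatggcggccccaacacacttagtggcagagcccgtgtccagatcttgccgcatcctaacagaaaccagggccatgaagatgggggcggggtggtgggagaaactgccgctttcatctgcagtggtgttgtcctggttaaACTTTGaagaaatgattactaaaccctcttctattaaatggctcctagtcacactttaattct
Slc22a6: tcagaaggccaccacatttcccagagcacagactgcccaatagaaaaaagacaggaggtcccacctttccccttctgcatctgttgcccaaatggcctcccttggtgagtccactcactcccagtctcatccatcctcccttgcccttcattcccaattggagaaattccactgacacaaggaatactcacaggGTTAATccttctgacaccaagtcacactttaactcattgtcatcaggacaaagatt

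The Slco1b2 window held GTTAAT, whose first base lies 66 bases before the start, and AGGTCA on the minus strand, which did not overlap. Slc22a6 held GTTAAT 56 bases before its start, Slc22a12 held CAAAGT on the minus strand, and Slco1a4 held none of the 4. RefSeq promoters were at hand for 34 of the 40 members. In the 250 bases before the start, GTTAAT stood in 4 of the 34 (11.8%; Slc22a29, Slc22a6, Slc22a8 and Slco1b2). It stood in 6.43% of all 32851 promoters. CAAAGT stood in 6 (17.6%) against 12.6%. AGGTCA stood in 5 (14.7%) against 14.0%, and CACGTG in 2 (5.88%; Slc22a16 and Slc22a4) against 6.02%. A match describes the letters alone, and the lack of a match says nothing of the factor.

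The comparison of kidney with liver asked which members each organ used. Of the 30 members in that fit, 26 were called, 18 higher in kidney and 8 lower. Of all 14379 genes 74.5% were called, 61.5% higher in kidney and 13.1% lower. Of the 30 members, 12 passed the filter in kidney alone and 2 in liver alone, Slc22a22, Slco1a6 and Slco1b2 among them. These entered through the organ where they were higher, so their calls and the p-values given for them below do not test their direction. All genes tested had a median difference of 0.74 on the log2 scale and the members had a median of 2.28. With the ADV mice alone 21 members were called, 16 higher and 5 lower, against 49.1% of all genes, and Slc22a15, Slc22a18, Slc22a29, Slco1a1 and Slco2a1 lost the call. With the libraries of all mice scaled by the median ratio instead, 26 members were called, 16 higher and 10 lower, against 33.6% and 31.6% of all genes. Of these, 24 were called with both scalings, 2 lost the call (Slc22a18 and Slc22a29) and 2 gained one, Slc22a23 among them. In whole organs, fewer cells of a type and less RNA per cell cannot be told apart. The sequencing provider of each library is not given in the sources used here, and its part in the organ differences was not tested.

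Organic anion transporters made up 50.9% of the summed FPKM of the members in kidney and 2.96% in liver. Slc22a12, the urate exchanger URAT1 (chr19:6535854-6543070), was the highest member in kidney at 239, 249.6, 231 and 336 FPKM in the LD mice and 395, 448, 339 and 27.9 FPKM in the ADV mice. In the 8 livers it had 1 fragment in all, in L86. Its ratio of kidney to liver was 122310, with an exact Poisson interval from 21952 to 4831000 that covers counting error only.

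Slc22a6, the anion exchanger OAT1 of the basolateral membrane (chr19:8617996-8628299), had 145, 159, 129.8 and 185 FPKM in the LD kidneys and 203, 189, 113 and 61.4 FPKM in the ADV kidneys. No fragment of it was found in any liver, which makes it at least 38182-fold higher in kidney against a floor of 3 fragments over the 8 livers. Slc22a8, its neighbour OAT3, had 112, 136, 144 and 130.2 FPKM in the LD kidneys and 112, 158, 114.8 and 15.8 FPKM in the ADV kidneys. All 3 genes were at or near 0 in every liver, so that no kidney overlapped a liver.

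With 2.5 fragments of Slc22a8 in all livers, its ratio was 29270 (exact Poisson interval 9140 to 176070). Slc22a19, the anion transporter OAT5, was found at 16.7 FPKM in kidney and at 0 in all livers, at least 2112-fold higher in kidney by the same floor. Slc22a22, a prostaglandin carrier of the kidney, had a mean of 72.2 FPKM there and 5 fragments in all livers, a log2 difference of 9.31 (SE 0.13, limma adjusted p = 1.33e-17). Slc22a13, a carrier of nicotinate and urate, had a mean of 15.4 FPKM in kidney and 1.5 fragments in all livers. Among the rodent genes of the chromosome 19 cluster the pattern was mixed. Slc22a28 was higher in kidney, with a difference of 3.22 (SE 0.18, limma adjusted p = 1.99e-10), whereas Slc22a27, with which it shares 91.6% of its coding bases, was lower there, with a difference of -3.79 (SE 0.27, limma adjusted p = 6.17e-09).

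Slc22a27 had a mean of 2.95 FPKM in liver and 0.0921 FPKM in kidney. Slc22a29 was higher in kidney with the deposited scaling, with a difference of 0.70 (SE 0.27, limma adjusted p = 0.0276), but lost the call with the mouse as a block (limma adjusted p = 0.0588) and without any 1 of L63 (0.60), L104 (0.69), A94 (0.52) or A115 (0.52). With scaling by the median ratio its difference was -0.02. Slc22a7, the anion transporter OAT2, and Slc22a26 were at like levels in both organs, with means of 8.39 and 5.40 FPKM in liver and 10.7 and 5.69 FPKM in kidney. Neither was called. Scaling by the median ratio turned both differences negative, to -0.68 and -0.45, still without a call, and without L86 Slc22a26 was called as higher in kidney (0.72).

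Organic cation transporters take up metformin, thiamine and monoamines. Slc22a2 (OCT2) had 91.5, 90.6, 89.3 and 113 FPKM in the LD kidneys and 112, 121, 94.7 and 46.5 FPKM in the ADV kidneys, and a single fragment in all livers. Its ratio was 38833 with an exact Poisson interval from 6970 to 1533800. Slc22a3 (OCT3) was low in both organs, with means of 1.02 FPKM in liver and 0.341 FPKM in kidney, with a difference of -1.42 on the log2 scale (SE 0.23, limma adjusted p = 4.90e-05). It was lower in the kidney of all 8 mice. The carnitine carriers were higher in kidney. Slc22a5 (OCTN2) had means of 68.9 and 8.44 FPKM, Slc22a4 (OCTN1, the ergothioneine carrier) 16.1 and 0.909 FPKM, and Slc22a21 0.546 and 0.116 FPKM in kidney and liver. All 3 were called, and Slc22a21 lost the call with quantile normalization (0.13).

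In liver, the Oatp1 family made up 64.7% of the summed FPKM of the members. Slco1b2, the hepatocyte carrier of bile acids, bilirubin and statins (chr6:141629518-141686635), alone made up 49.3%. It had 470.3, 470.4, 364 and 364 FPKM in the LD livers and 369, 521, 305 and 359 FPKM in the ADV livers. In kidney, 12 fragments were found in all 8 libraries. The difference was -11.7 on the log2 scale (SE 0.14, limma adjusted p = 1.74e-18). It was lower in kidney in 8 of 8 mice, with an exact two-sided sign-flip p of 0.0078, the smallest that 8 mice can give.

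The neighbour genes of Slco1b2 differed in their organ. Slco1a4, a carrier of digoxin and steroid conjugates (chr6:141805440-141856171), had 20.3, 22.7, 17.2 and 13.9 FPKM in the LD livers and 17.3, 22.4, 25.6 and 9.09 FPKM in the ADV livers, and from 0.353 to 0.645 FPKM in the kidneys. The difference was -5.02 on the log2 scale (SE 0.20, limma adjusted p = 3.08e-12). Slco1a6 was the reverse, at 98.9, 95.4, 85.7 and 102 FPKM in the LD kidneys and 62.5, 85.1, 72.9 and 81.9 FPKM in the ADV kidneys, against 5.5 fragments in all livers, a difference of 9.60 (SE 0.10, limma adjusted p = 6.78e-19). The coding sequences of these opposite genes were identical at 85.0% of their bases.

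Slco1a1, the carrier that is known to be higher in male than in female mouse liver, was high in both organs, with means of 107.9 FPKM in liver and 60.6 FPKM in kidney. It was lower in kidney in 7 of 8 mice, with a difference of -0.85 (SE 0.28, limma adjusted p = 0.0121). The call was lost without A75 (-0.72, limma adjusted p = 0.0510), with the LD mice alone (-0.71, limma adjusted p = 0.0525) and with the ADV mice alone (-0.997, limma adjusted p = 0.0675). Slco1a5 and Slco1c1, the thyroxine carrier of the blood-brain barrier, passed the filter in neither organ. Of the other Slco genes, Slco2b1 had 28.5, 31.0, 31.5 and 32.6 FPKM in the LD livers and 23.97, 28.4, 31.5 and 33.4 FPKM in the ADV livers. It was lower in kidney, with a difference of -2.17 (SE 0.23, limma adjusted p = 5.04e-07), as was the prostaglandin carrier Slco2a1 with -1.40 (SE 0.32, limma adjusted p = 0.000981). Slco3a1, Slco4a1 and Slco4c1 were higher in kidney, by 5.24, 4.29 and 5.60, and all were called by limma.

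Of the remaining Slc22 genes, Slc22a18, an imprinted gene, had 38.0, 44.5, 48.1 and 44.5 FPKM in the LD livers and 44.3, 44.6, 45.1 and 47.4 FPKM in the ADV livers. In kidney it had 112, 136, 146 and 172 FPKM in the LD mice and 189, 283, 267 and 14.2 FPKM in the ADV mice. The difference of 1.54 (SE 0.48, limma adjusted p = 0.00881) came to 0.76 under the median ratio scaling, where it was not called (limma adjusted p = 0.106). Slc22a17, a receptor of lipocalin-2, was higher in kidney, with a difference of 4.02 (SE 0.51), and the orphan Slc22a15 lower, with -0.79 (SE 0.17). Slc22a23 was at 11.8 FPKM in liver and 11.5 FPKM in kidney and not called, but was lower in kidney with scaling by the median ratio (-0.83).

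**Figure D2:**
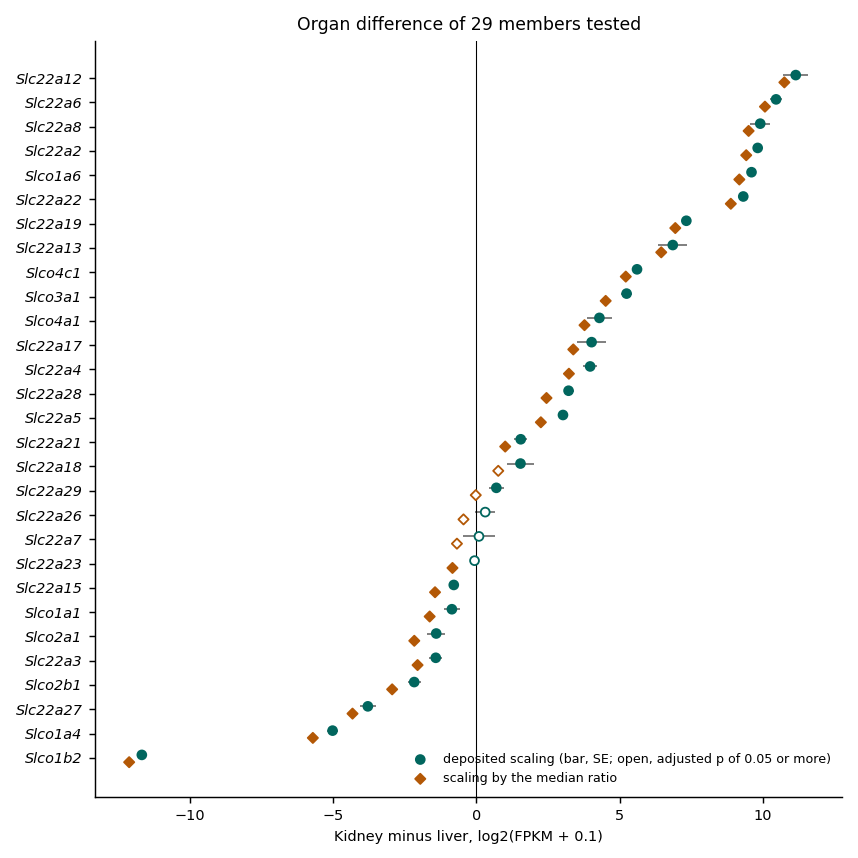
Difference between kidney and liver on the log2(FPKM + 0.1) scale of 29 members tested, from the 8 mice, with the deposited scaling (circles, with SE) and with scaling by the median ratio (diamonds), open where the adjusted p by limma was 0.05 or more. The members run from -11.7 for Slco1b2 to 11.1 for Slc22a12, and the scaling moves all of them towards liver.

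The comparison of ADV with LD asked whether misalignment changed the transporters. In liver, no member was called among 18, and 0.00779% of all genes were called, 1 of 12835. That gene was Col27a1, a fibrillar collagen and no member, named here after its value was seen, with a difference of -1.54 (limma adjusted p = 0.00609). At an unadjusted p under 0.05 there were 5 members, 2 higher in ADV and 3 lower, against 11.8% of all genes, 8.65% higher and 3.13% lower, and limma-voom on the recovered fragments also called 0 members and had 5 at that level. The difference was positive for 8 members and negative for 10, with a median of -0.08 against 0.10 over all genes tested. Values of the 4 ADV and 4 LD livers did not overlap for 2 members, Slc22a5 and Slc22a23, both lower in ADV, where 1.89% of all genes stood apart in that direction, 6.94% in the other and 8.84% in either. No member was called in liver with any mouse left out or under any other setting tried, and the lowest adjusted p among them was 0.0887 with array weights.

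Slc22a5, which brings carnitine into cells for the oxidation of fatty acids, had the smallest p. Its levels were 8.39, 8.87, 13.5 and 10.97 FPKM in the LD livers and 6.16, 8.08, 5.03 and 6.54 FPKM in the ADV livers. Every ADV liver lay under every LD liver. The difference was -0.68 on the log2 scale (SE 0.18), with an adjusted p of 0.296 by limma and an exact two-sided permutation p of 0.0286, the smallest that the 70 assignments can give. The means were 10.4 ± 2.32 FPKM in LD and 6.45 ± 1.26 FPKM in ADV (SD, n = 4 each). In kidney the same gene had a difference of -0.04 (SE 0.31), which was 0.23 without A115 and -0.28 without A94.

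The promoter window of Slc22a5 is shown because it had the smallest p in liver (chr11:53891704-53891953, minus strand), with that of Slc22a27, the next in order (chr19:7966028-7966277, minus strand). The first held none of the 4 motifs and the second AGGTCA on the minus strand, in capitals.
Slc22a5: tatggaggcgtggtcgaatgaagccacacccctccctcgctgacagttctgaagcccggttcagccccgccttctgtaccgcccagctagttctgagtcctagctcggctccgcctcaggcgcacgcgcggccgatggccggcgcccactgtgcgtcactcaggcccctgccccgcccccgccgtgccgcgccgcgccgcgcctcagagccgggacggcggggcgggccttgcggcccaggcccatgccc
Slc22a27: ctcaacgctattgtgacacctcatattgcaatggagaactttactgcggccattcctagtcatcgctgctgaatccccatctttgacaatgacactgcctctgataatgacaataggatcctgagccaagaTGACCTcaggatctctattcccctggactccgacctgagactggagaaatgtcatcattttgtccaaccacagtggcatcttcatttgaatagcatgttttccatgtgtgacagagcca

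Slc22a27 had 1.27, 1.13, 3.72 and 0.820 FPKM in the LD livers and 4.20, 6.38, 3.31 and 2.76 FPKM in the ADV livers. Its near-identical relative Slc22a29 had 0.558, 0.637, 1.255 and 0.678 FPKM in LD and 1.87, 2.98, 1.08 and 0.853 FPKM in ADV. In both genes L86 was the highest LD liver and overlapped the ADV livers. The differences were 1.38 (SE 0.43) and 0.93 (SE 0.38), with limma adjusted p of 0.326 and 0.396 and an exact permutation p of 0.0857 for each.

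Slc22a28, the third of these relatives, lay the other way, at 9.05, 8.46, 5.22 and 8.47 FPKM in LD and 4.34, 5.77, 2.68 and 5.74 FPKM in ADV. Here too L86 alone overlapped the ADV livers, and the difference was -0.77 (SE 0.26, limma adjusted p = 0.362). Slc22a23, an orphan member (chr13:34179158-34345182), had 14.1, 12.8, 13.2 and 11.8 FPKM in LD and 10.3, 10.9, 10.9 and 10.6 FPKM in ADV. The groups did not overlap, and the difference was -0.28 (SE 0.09, limma adjusted p = 0.348; exact permutation p = 0.0286).

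The highest liver members differed by less than their spread or were not called. Slco1b2 had 417 ± 61.4 FPKM in LD and 389 ± 92.8 FPKM in ADV (SD, n = 4). Slco1a1 had 183, 167, 65.2 and 131 FPKM in the LD livers and 110.3, 43.6, 68.6 and 94.3 FPKM in the ADV livers. All ADV livers lay under 3 of the LD livers, but L86 lay among them, and the difference of -0.77 (SE 0.37) was not called by limma (adjusted p = 0.442). Summed over the 40 members, the LD livers had 862 ± 99.5 FPKM and the ADV livers 774 ± 76.1 FPKM (SD, n = 4).

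Markers of other cell types are given beside these values, where 65.75% of all genes tested had a positive difference in liver. All 12 macrophage and Kupffer cell markers had one, with a summed level of 201 to 290.0 FPKM in LD and 284 to 832 FPKM in ADV, and all 10 markers of fibroblasts and stellate cells, with 121 to 138 FPKM in LD and 166 to 369 FPKM in ADV. The macrophage sums overlapped, with A91 at 284 FPKM and L86 at 290.0 FPKM. Lymphocyte markers summed to 4.33 to 5.96 FPKM in LD, 6.48 to 8.34 FPKM in the other ADV livers and 95.2 FPKM in A94. Endothelial markers summed to 77.5 to 83.8 FPKM in LD and 84.0 to 112.1 FPKM in ADV, with 8 of 9 positive. Adipocyte markers summed to 15.9 to 24.2 FPKM in LD and 26.2 to 70.1 FPKM in ADV. Of the 2 tested, Fabp4 had a difference of 1.17 (limma unadjusted p = 0.0269, adjusted p = 0.385) and Cidec one of -0.23 (limma adjusted p = 0.875). Neither sum overlapped between the groups, but Fabp4 did, at 9.16 to 12.4 FPKM in LD and 10.6 FPKM in A91. Cidec was above Fabp4 in A91, at 18.1 FPKM, and in L104, at 14.0 against 10.2 FPKM. Erythroid markers summed to 232 to 299.75 FPKM in LD and 213 to 429 FPKM in ADV, with A75 and A91 below every LD liver, and Alas2 had a difference of -0.54 (limma unadjusted p = 0.00708, adjusted p = 0.313). The upper ADV sums belong to A94, except that of the endothelial markers, which belongs to A115 (A94 at 98.2 FPKM). A94 was the highest liver for 11 of 12 macrophage, 9 of 10 fibroblast and 13 of 13 lymphocyte markers. Of 6 cholangiocyte markers, 2 were highest in A94. Spp1, which was at 242 FPKM there and 16.9 to 24.8 FPKM in LD, made up 98.2% of their sum in that liver, whereas Krt19 was at 0.815 FPKM there and highest in A75 at 14.2 FPKM. None of these markers was called, and none was at 0 in all livers. At an unadjusted p under 0.05 by limma, 8 of 12 macrophage and 7 of 10 fibroblast markers were higher in ADV, against 8.65% of all genes. At that level 1 of 12 lymphocyte markers tested and 0 of 9 endothelial markers were higher. The 10 hepatocyte markers had a summed level of 58912 to 72745 FPKM in LD and 59503 to 68939 FPKM in ADV. Without A94, Slc22a5 had a difference of -0.57 and Slc22a27 of 1.46, and the part of other cell types in the liver values was not tested.

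**Figure D3:**
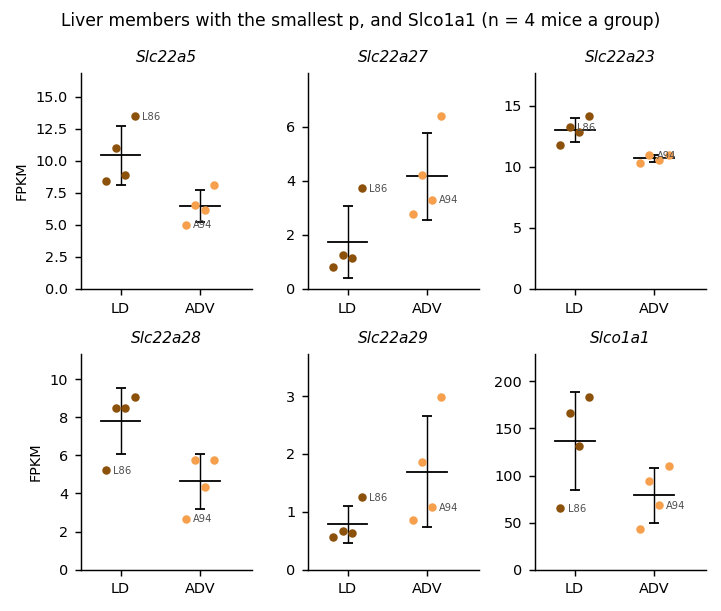
FPKM in liver of the 5 members with the smallest p for ADV against LD and of Slco1a1, with 1 point for each mouse, the mean as a line and the SD as a bar (n = 4 a group), on axes from 0. The ADV points of Slc22a5 and Slc22a23 lie under all LD points, and L86 is the LD point nearest to or within the ADV range for Slc22a27, Slc22a28, Slc22a29 and Slco1a1.

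In kidney, no member was called among 28 and 0.0% of 14452 genes were called. At an unadjusted p under 0.05 there were 4 members, 1 higher in ADV and 3 lower, against 3.1% of all genes, 1.75% higher and 1.35% lower, and limma-voom called 0 members and had 4 at that level. The difference was positive for 5 members and negative for 23, with a median of -0.26 against -0.02 over all genes tested. Without A115 the difference was positive for 16 members and negative for 12, with a median of 0.08 against 0.20 over all genes. The ADV kidneys varied more than the LD kidneys, with a median SD on the log2 scale of 0.686 against 0.222 over the members and of 0.572 against 0.179 over all genes tested. Most of that gap came with A115, without which the ADV medians were 0.280 over the members and 0.218 over all genes. Values of the groups did not overlap for 1 member, Slco1a6, lower in ADV, where 1.83% of all genes stood apart in that direction and 2.8% in either.

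Slco1a1 had the smallest p, and its difference was negative in both organs. Its levels were 74.2, 78.1, 53.3 and 117 FPKM in the LD kidneys and 31.6, 65.8, 22.5 and 41.7 FPKM in the ADV kidneys. A91 overlapped the LD kidneys and the other ADV kidneys lay under them. The difference was -1.05 (SE 0.36), with a limma adjusted p of 0.9999 and an exact permutation p of 0.0571.

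Slco1a6, whose values are given above, had a difference of -0.34 (SE 0.15, limma adjusted p = 0.9999; exact permutation p = 0.0286), and every ADV kidney lay under every LD kidney. Slc22a22, the prostaglandin carrier, had 88.1, 84.8, 70.6 and 92.6 FPKM in LD and 41.8, 66.3, 53.6 and 79.9 FPKM in ADV. A115 alone overlapped the LD kidneys here, and the difference was -0.51 (SE 0.22, exact permutation p = 0.0571). Slc22a29 had 1.55, 0.890, 1.68 and 1.20 FPKM in LD and 1.97, 1.59, 3.80 and 3.08 FPKM in ADV, a difference of 0.88 (SE 0.33, exact permutation p = 0.0571). Its difference was positive in both organs and called in neither.

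Slc22a7, which carries cyclic GMP and organic anions, had 14.9, 11.4, 8.86 and 23.8 FPKM in LD and 9.53, 9.23, 7.74 and 0.418 FPKM in ADV. Its difference of -1.67 (SE 0.93, exact permutation p = 0.0857) was -0.64 without A115. The kidney A115 also stood apart in the highest members. For Slc22a12, Slc22a18, Slc22a6, Slc22a8 and Slc22a2, A115 was the lowest of all 8 kidneys, and the other ADV kidneys lay above every LD kidney for Slc22a12 and Slc22a18. Their differences with all mice were from -0.79 (Slc22a8) to -0.12 (Slc22a2), none called. Without A115 they were -0.04 for Slc22a8, 0.09 for Slc22a6 and 0.19 for Slc22a2, none of these called. Summed over the members, A115 had 539.5 FPKM, against 1542, 1938 and 1562 FPKM in the other ADV kidneys and 1330.4 to 1717 FPKM in the LD kidneys.

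Without A115, 18.8% of all 14475 genes were called in kidney, 2724 in number with 2336 higher in ADV, and 4 of the 28 members: Slc22a17, Slc22a18 and Slc22a12 higher and Slc22a22 lower. Slc22a17 had 3.37, 3.30, 4.55 and 5.41 FPKM in the LD kidneys and 8.87, 12.6, 10.6 and 0.469 FPKM in the ADV kidneys. Its difference of 0.30 (SE 0.93) with all mice became 1.35 (SE 0.20, limma adjusted p = 0.0110) without A115. Slc22a18 came to 0.79 (SE 0.18, limma adjusted p = 0.0236), Slc22a12 to 0.58 (SE 0.16, limma adjusted p = 0.0374) and Slc22a22 to -0.66 (SE 0.16, limma adjusted p = 0.0294). The median of all genes moved to 0.20 in this fit, and with scaling by the median ratio Slc22a18 and Slc22a12 lost the call and Slco1a6 was called as lower (-0.58). With all mice and the array weights of limma, 16.9% of all genes (median 0.20) and 5 of the 28 members were called, Slc22a17 (1.41) and Slc22a18 (0.83) higher and Slc22a22 (-0.65), Slco1a1 (-1.23) and Slco1a6 (-0.38) lower.

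The levels in single kidneys moved with the GC content of the transcripts. Over the 28 members, whose GC content ran from 38.7% (Slco1a1) to 62.3% (Slc22a17), Pearson's r with the log2 ratio to the LD mean was -0.788 in A115 and 0.603, 0.649 and 0.479 in A75, A91 and A94, and over all genes tested it was -0.680, 0.578, 0.568 and 0.370. In the LD kidneys it was -0.492, 0.136, 0.285 and 0.0558 over the members and -0.326, -0.116, 0.1695 and 0.235 over all genes, so that L63 had a value over the members as far from 0 as that of A94. These are correlations across genes that share a library, given as a description. In A115 the members ran from 2.84% of the LD mean for Slc22a7 and 5.95% for Slc22a13 to 150.1% for Slco1a4 and 231% for Slc22a29, and 16 of 28 were under 50%. With a correction for GC content in each library and without A115, 0 genes and 0 members were called (2596 genes and 6 members at an unadjusted p under 0.05), and the differences were 0.53 for Slc22a17, 0.25 for Slc22a18, -0.0055 for Slc22a12 and -0.45 for Slc22a22, with limma adjusted p from 0.173 to 0.989. In that fit Slco1a6 had a difference of -0.18 (limma adjusted p = 0.382) and Slco1a1 one of -0.86 (limma adjusted p = 0.267). Slc22a7 had one of -1.16 there (SE 0.31, limma adjusted p = 0.132), with the smallest adjusted p of the members. Libraries came from 2 sequencing providers, not assigned to libraries in the sources used here, and the part of the provider was not tested. Markers moved as well: the sum of the S3 segment markers was 469 FPKM in A115, against 1501 to 2050 FPKM in LD and 1476 to 2020 FPKM in the other ADV kidneys. Of the 10 proximal tubule markers, A115 had the lowest level of 6 and the highest of 2, Kap and Slc5a12. Slc34a1 was at 153.6 FPKM there, against 801 to 992 FPKM in LD and up to 1553 FPKM in the other ADV kidneys, and Miox at 259 FPKM, against 1188 to 1520 FPKM in LD. Kap alone made up 97.3% of the sum of this list in A115, which was 47212 FPKM, against 29831 to 42820 FPKM in LD and 20606, 32747 and 23765 FPKM in the other ADV kidneys. Lists outside the proximal tubule also had low sums in A115. Collecting duct markers summed to 63.6 FPKM there, against 158 to 259 FPKM in LD, with 6 of 8 lowest in A115 and Aqp2 at 1.81 FPKM, against 35.7 to 94.7 FPKM. Loop of Henle and distal tubule markers summed to 1309 FPKM, against 1848 to 2405 FPKM in LD, podocyte markers to 62.0 FPKM, against 83.2 to 87.5 FPKM, and endothelial markers to 119 FPKM, against 134 to 146 FPKM. Of the 9 endothelial markers 4 were lowest in A115, with Plvap at 4.86 FPKM, against 29.2 to 43.2 FPKM in LD, whereas Emcn was highest there at 76.0 FPKM, against 58.6 to 62.2 FPKM. Spp1 was at 8133 FPKM in A115 and 6636 FPKM in A75, against 605 to 2676 FPKM in LD. Macrophage markers summed to 79.1 to 252 FPKM in LD and 83.8 to 701 FPKM in ADV, and lymphocyte markers to 8.71 to 14.3 FPKM in LD and 8.24 to 116 FPKM in ADV, the upper values in A94, where all 13 lymphocyte markers were highest. Fibroblast markers summed to 62.4 to 104.4 FPKM in LD and 79.3 to 202 FPKM in ADV. Of these 10, 9 had a positive difference and 3 an unadjusted p under 0.05 by limma, Col1a1 (1.88), Col1a2 (1.26) and Col3a1 (2.14), none called. Erythroid markers summed to 162 to 357 FPKM in LD and 116 to 843 FPKM in ADV. Without A115, where 18.8% of all genes were called, 3 collecting duct, 3 proximal tubule, 3 erythroid and 1 fibroblast marker were called. The macrophage and lymphocyte lists had 0 calls there. The part of these cell types in the kidney values was not tested.

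**Figure D4:**
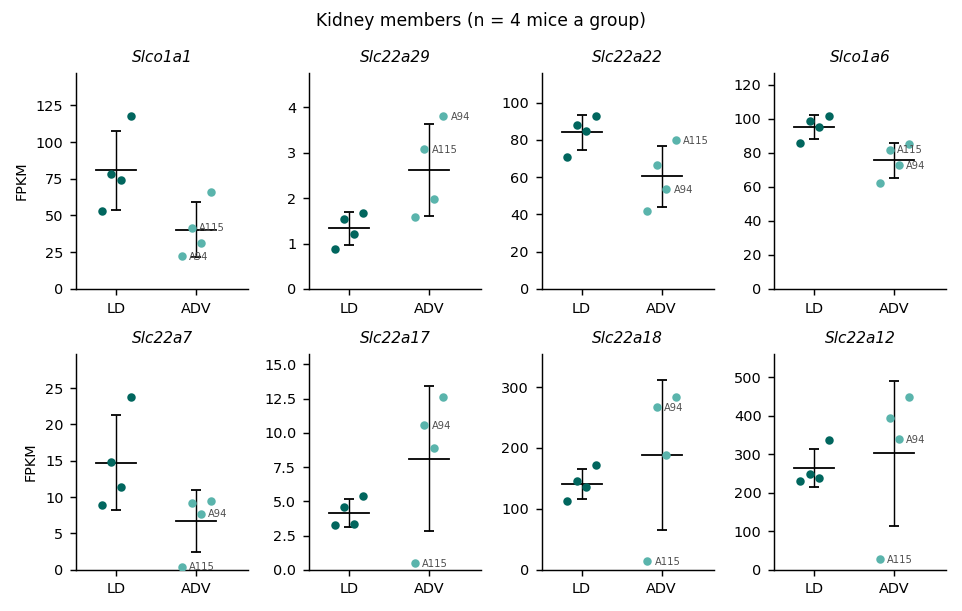
FPKM in kidney of the 5 members with the smallest p for ADV against LD and of those called without A115, with 1 point for each mouse, the mean as a line and the SD as a bar (n = 4 a group), on axes from 0. For Slc22a7, Slc22a17, Slc22a18 and Slc22a12, A115 lies below all other kidneys, at 0.418, 0.469, 14.2 and 27.9 FPKM, and for Slco1a6 and Slc22a22 it lies among or above the other ADV kidneys.

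**Figure D5:**
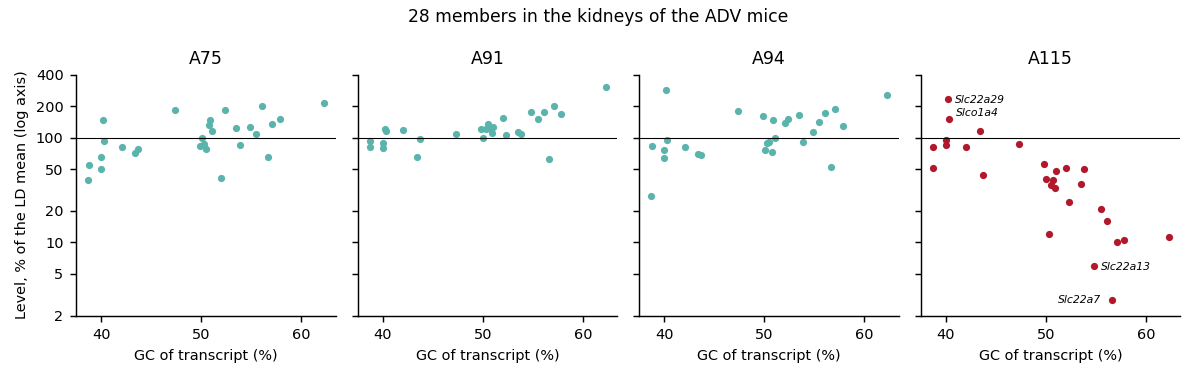
Level of each of the 28 kidney members in each ADV kidney as a percent of the LD mean (log axis) against the GC content of its transcript in percent, with 1 point for each member and a line at 100%. In A115 members of high GC content lie lowest, with Slc22a7 at 2.84%, whereas in A75, A91 and A94 they tend to lie above members of low GC content.

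The difference of the ADV effect between the organs was tested in 1 fit of the 16 libraries. Of the 30 members in that fit, 16 passed the filter in both organs. The others entered through 1 organ alone, Slc22a6, Slc22a12, Slc22a2 and Slco1b2 among them, and no difference of effects is given for them. None of the 16 was called, and 0.0% of the 14379 genes in the fit were called. At an unadjusted p under 0.05 there were 0 of the 16 and 3.73% of all genes, and limma-voom called 0 of the 16 and had 0 at that level. Slc22a28, which had the smallest p of the 16, had a kidney effect minus its liver effect of 0.62 (SE 0.35, limma adjusted p = 0.9999). Slco4c1, a basolateral carrier of digoxin and thyroid hormone, had 7.52, 5.21, 4.84 and 6.43 FPKM in the LD kidneys and 3.25, 5.60, 4.99 and 4.91 FPKM in the ADV kidneys, and between 0 and 0.0739 FPKM in the livers. In kidney Slc22a28 had 55.3, 57.3, 46.7 and 74.9 FPKM in LD and 47.6, 68.8, 47.7 and 47.4 FPKM in ADV, so that those groups overlapped.

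Genes that work with the transporters were counted for the same comparison, and their counts at an unadjusted p under 0.05 are read against the shares of all genes at that level given above and against the medians of all genes of 0.10 in liver and -0.02 in kidney. Of 18 regulators of transporter genes, 17 were tested in liver, with a median of -0.13, of which 4 were lower at that level and none higher, and 15 in kidney, with a median of -0.28 and 1 lower. Of 12 efflux pumps of the ABC family, 12 and 9 were tested in liver and kidney, with medians of -0.11 and -0.13 and 1 lower in each organ. Of 16 uptake partners and apical carriers, 10 and 15 were tested, with medians of -0.004 in liver and -0.36 in kidney, and 2 were higher in liver and 3 lower in kidney. Of 7 scaffold genes, 6 and 7 were tested, with medians of 0.01 and -0.24 and 1 lower in liver. Of 17 drug metabolism enzymes found, 17 and 11 were tested, with medians of 0.07 and -0.33, and 1 was higher and 1 lower in liver. Of 8 male-predominant genes, 8 and 5 were tested, with medians of -0.42 and -0.61 and 1 lower in kidney, and of 8 female-predominant genes, 4 and 2, with -0.73 and -0.51 and 1 lower in liver.

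With all mice, no gene of these lists was called in either organ. Without A115, where 18.8% of all genes were called in kidney, 4 regulators, 3 uptake partners, 1 ABC pump and 1 scaffold gene were called there. Among them, Rxra (0.48), Cebpa (0.86), the nucleoside carrier Slc29a1 (0.56), Abcc6 (0.75) and Pdzk1ip1 (0.69) were higher, and Ppara (-0.43), Slc5a8 (-0.66) and Slc51b (-0.70) lower. The kidney medians were then 0.11 for the regulators, -0.07 for the ABC pumps, 0.0019 for the uptake partners, 0.02 for the scaffold genes and 0.01 for the drug enzymes, against 0.20 over all genes, and -0.43 and -0.03 for the male- and female-predominant genes.

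The list genes with the smallest p in liver were Por, Nr1i3 and Ppara. Por, which passes electrons to cytochromes P450, had 200.3, 184, 258 and 226 FPKM in LD and 91.6, 151, 105.5 and 105.3 FPKM in ADV, a difference of -0.95 (SE 0.17, limma adjusted p = 0.210). Nr1i3, the xenobiotic receptor CAR, lay at 65.3 to 71.3 FPKM in LD and 38.0 to 53.4 FPKM in ADV, a difference of -0.56 (SE 0.11, limma adjusted p = 0.234). Ppara, the fatty acid receptor, lay at 41.9 to 56.2 FPKM in LD and 20.6 to 36.4 FPKM in ADV, a difference of -0.75 (SE 0.18, limma adjusted p = 0.296). In kidney the list genes with the smallest p were Slc5a8, Cyp7b1 and Slc51b, with differences of -0.70 (SE 0.20), -0.61 (SE 0.19) and -0.57 (SE 0.19), all with a limma adjusted p of 0.9999.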

How the data were processed

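Poly(A) RNA from the livers and kidneys of 4 mice per light condition had been sequenced as stranded, paired-end libraries. Per the file headers and the study's methods, the authors trimmed reads with Trimmomatic, mapped them with STAR 2.5.4b to GRCm38/mm10, removed reads of mapping quality under 10, counted exons of 32989 UCSC canonical genes with HOMER and deposited FPKM values scaled to each library total, with no other normalization between libraries. All values were whole steps of 0.5 fragments (tolerance 0.01), so fragments could be recovered.

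Values were taken as log2(FPKM + 0.1) and tested with limma 3.58.1 in R 4.3.3, with a trend in the variance prior and Benjamini-Hochberg adjustment over all genes with a mean above 0.5 FPM (fragments scaled to the library total). FPKM are not counts, so no count model was used except in limma-voom on the recovered fragments. A fold change on this scale understates that of low genes. ADV and LD were compared in each organ alone. The organs, and the difference of the ADV effect between them, were compared in 1 fit of 4 groups. Exact permutation and sign-flip tests were two-sided. Intervals and floors cover counting error only.

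Liver and kidney of the same number came from the same mouse. Their deviations from the group means correlated by -0.0242 to 0.553, and the mouse as a block was an alternative. The members, gene lists, named genes and tests were chosen with earlier results of these data known. Values of every library were given for the 6 highest members in each organ, the 5 of smallest p for ADV in each organ and the 3 of smallest p for the difference between organs. Of these, 1 member is not reported here, although it stays in counts and sums over the members. The 5 members of largest organ difference in each direction and the 3 list genes of smallest p in each organ were also named. Alternatives were other pseudocounts, filters, scalings, weights, limma-voom, the block and each mouse left out. On simulated data with 200 genes shifted by 1.5 on the log2 scale, 185 were recovered in the liver comparison and 97 in the kidney comparison. Between organs 165 were recovered, and 108 for the difference of the effects. In the same order, 9, 7, 22 and 14 genes without a shift were called as well. Coding sequences were compared from GENCODE M21 and promoters were read from RefSeq, whereas protein sequences were not used here.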

Additional observations from a re-analysis of the deposited data

Results flagged for a closer look

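In 92 groups of 4 mice, 12 values lay farther from the other 3 than Dixon's critical value allows, where chance gives about 1 in 20 groups. Of these, 10 were in the ADV kidneys and 9 belonged to the kidney A115. A115 was low for Slc22a17 at 0.469 FPKM (others 8.87 to 12.6), for Slc22a7 at 0.418 FPKM (7.74 to 9.53) and for Slc22a8 at 15.8 FPKM (112 to 158). It was also low for Slco4a1 at 0.510 FPKM (5.37 to 6.27), Slc22a18 at 14.2 FPKM (189 to 283), Slc22a13 at 0.889 FPKM (16.9 to 26.3) and Slc22a12 at 27.9 FPKM (339 to 448). The same kidney was high for Slc22a26 at 7.26 FPKM (4.12 to 4.46) and for the share of fragments on mitochondrial genes at 33.8% (9.43% to 13.1%).

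The other ADV value was Slc22a28 in the kidney A91 at 68.8 FPKM (47.4 to 47.7). Among the LD mice, Slc22a2 in the kidney L104 was high at 113 FPKM (89.3 to 91.5), and Slc22a28 in the liver L86 was low at 5.22 FPKM (8.46 to 9.05).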

How the results depend on the processing

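Of 789 differences of 33 member results under 22 other settings and 4 more chosen after seeing the data, 728 kept their direction and side of the threshold, 16 passed it only under the alternative, 10 lost it and 35 changed sign. The cause was not tested. In liver 1 gene was called, against 6 without a filter on low values, 3 with array weights, 2 without A94 and A115, and 0 with quantile normalization or without A115 and corrected for GC content. With 1 mouse left out it was 0 to 9, with 0 without L65, L104 or A75 and 9 without A91. In kidney 0 members and 0 genes were called, against 5 and 2439 with array weights, 3 and 2309 without A115 and scaled by the median ratio, and 1 and 672 without A94 and A115. With 1 mouse left out it was 0 to 4 members and 0 to 2724 genes, the upper values without A115, and with both organs in 1 fit 1 gene. Between organs 7145 genes were called with ADV mice only, against 10719. For the difference of the effects 0 members and 0 genes were called, against 2 and 1301 with array weights (Slc22a5 and Slc22a17) and 1 (Slc22a17) and 746 without A94 and A115, where Slc22a17 lay under the filter in liver. Its gene count was 3 without a filter, 463 without A115 and scaled by the median ratio, 0 to 415 with 1 mouse left out (415 without A115), and 1 each with the median ratio, quantile normalization, the correction for GC content and that correction without A115.

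In kidney, the ADV difference of Slc22a12 became 0.52 with array weights, 0.58 without A115, 0.39 with the median ratio too and 0.69 without A94 and A115. With 1 mouse left out it ran from -0.75 to 0.58, that of Slc22a17 from -0.14 to 1.35 and that of Slc22a18 from -0.64 to 0.79, the upper values without A115. That of Slc22a18 became 0.83, 0.79, 0.60 and 0.73 in this order and 0.25 without A115 and corrected for GC content, and that of Slc22a17 became -0.14 without A91 and -0.05 without A94. Between organs, Slc22a23 became 0.0872 with totals free of mitochondrial genes, 0.0657 with array weights, 0.0450 without A115 and 0.0666 without A94 and A115. With the median ratio, quantile normalization, the median ratio without A115, the GC correction and the GC correction without A115, Slc22a26 became -0.45, -0.47, -0.71, -0.53 and -0.68, Slc22a29 became -0.0216, -0.39, -0.27, -0.11 and -0.20, and Slc22a7 became -0.68, -0.54, -0.21, -0.62 and -0.34. Slc22a26 also became -0.0522 without A94 and A115, and Slc22a7 became -0.03 without L86, -0.13 without A91, -0.17 without A94 and -0.32 with ADV mice only. With 1 mouse left out it ran from -0.17 to 0.63.

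With the mouse as a replicate block, 25 members and 10882 genes were called between the organs, and 0 members and 0 genes for the difference of the effects. The pairing changed no call of a member other than that of Slc22a29, whose difference stayed 0.70. Summing repeated symbols was not run, since no member had more than 1 row. With 4 mice a group, members at a few fragments could not be compared at this depth.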

Other observations

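The liver of the LD mouse L86 differed from the other LD livers in several members. It had the lowest LD value of Slco1a1 (65.2 FPKM), Slc22a7 (3.82 FPKM) and Slc22a28 (5.22 FPKM), and the highest of Slc22a26 (14.7 FPKM), Slc22a27 (3.72 FPKM), Slc22a29 (1.255 FPKM) and Slc22a5 (13.5 FPKM). Slc22a26 had 3.02, 2.96 and 1.98 FPKM in the other LD livers and 8.08, 5.90, 3.43 and 3.13 FPKM in the ADV livers, so that its highest liver value was an LD mouse.

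Slco4a1, which lay under the filter in liver, had 0.0465, 0.0330, 0.0371 and 0.0265 FPKM in the LD livers and 0.0486, 0.0984, 0.150 and 0.0771 FPKM in the ADV livers. These groups did not overlap, at 37.5 fragments over all 8 livers. Among the genes that passed the filter in liver, 6.94% stood apart in this direction.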
